A study of Mus musculus with 2 samples.

Results

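A set of 235 colon epithelial cells, marked by the oxidase gene Duox2 together with interferon-type Ifit1bl genes and Cyp2d cytochrome genes, was described in 2 single-cell libraries, 218 of them in the wild-type (WT) library and 17 in the Alzheimer's disease (AD) model library. They were chosen from 10821 cell barcodes, each barcode standing for 1 captured droplet. A barcode was a member when it had at least 200 detected genes, at most 50% mitochondrial transcripts and at least 0.3% of its transcripts from Epcam, Krt8, Krt18, Krt19, Cldn7 and Lgals4 together. It also had to have at least 3 of 7 genes detected (Duox2, Duoxa2, Nos2, Ifit1bl1, Ifit1bl2, Cyp2d9 and Cyp2d12), and less than 0.5% of its transcripts from the goblet cell genes Muc2, Fcgbp, Clca1 and Spink4. Transcripts are counted as unique molecular identifiers (UMIs), and levels are given as CPM, the UMIs of a gene over all UMIs of the cells named, scaled to a total of 1000000. The 7 genes were measured values, so their levels in the members are given as a description.

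The series studies gut tuft cells and cognition in mice, and single-cell sequencing was used on colon of WT mice and of the transgenic AD model APP/PS1-21. In that model human amyloid precursor protein and presenilin transgenes are driven by a Thy1 promoter element chosen for neurons, so the colon epithelium is not the tissue the transgenes were aimed at. The tissue of both groups was minced colon digested with trypsin and DNase I, with red cells lysed, and neither group is labelled with any other treatment. Age, sex, colon region and the number of mice behind each library are not given in the labels. With 1 library per genotype the spread between animals was not measured and no test between genotypes was made, so each difference is one between these libraries. Values in parentheses after a share, level or ratio are exact 95% bounds, by Clopper-Pearson for a share, by Poisson for a level and given the summed count for a ratio, and they cover counting error only.

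Colonocytes of the surface and upper crypt are the absorptive cells that face the gut contents. DUOX2 is a membrane oxidase that releases hydrogen peroxide towards the lumen and needs its maturation factor DUOXA2 to leave the endoplasmic reticulum. NOS2, the inducible nitric oxide synthase, makes nitric oxide, and both enzymes are known as epithelial responses to microbes. Ifit1bl1 and Ifit1bl2 are relatives of Ifit1, a classic target of type I and type III interferon whose protein binds viral RNA. Cyp2d9 and Cyp2d12 belong to the mouse Cyp2d cluster, whose enzymes oxidise drugs and steroids.

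In all, 26898149 UMIs were counted over 4146 WT barcodes and 38731915 over 6675 AD barcodes, with at least 500 in each barcode. Of these, 1993 WT and 2968 AD barcodes met the gene, mitochondrial and epithelial limits, and 1720 and 1879 of them also lay under the goblet limit. The WT epithelial barcodes carried more mitochondrial transcripts, with a median of 35.3% against 22.9% in AD. The mitochondrial share can therefore not be told apart from genotype in these data, and the shares and several levels below are also given within 2 bands, at most 25% and 25 to 50%. The libraries shared 7 barcode sequences, and 1 WT member and 0 AD members had a shared one.

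Members made up 218 of 1993 WT epithelial barcodes, 10.9% (9.60 to 12.4), and 17 of 2968 AD epithelial barcodes, 0.573% (0.334 to 0.915). The AD share was 0.0524 of the WT share (0.0300 to 0.0858). Nearly all WT members, 205 of 218, had 25 to 50% mitochondrial transcripts, where they were 14.1% of 1451 epithelial barcodes (12.4 to 16.03). In the same band the AD library had 7 members among 1352 barcodes, 0.518% (0.208 to 1.06). At 25% or less the WT library had 13 members among 542 barcodes, 2.40% (1.28 to 4.07), and the AD library 10 among 1616, 0.619% (0.297 to 1.14). The AD share was thus the lower one in both bands, at 0.0366 of the WT share (0.0146 to 0.0769) in the upper band and 0.258 (0.101 to 0.637) in the lower.

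**Figure D1:**
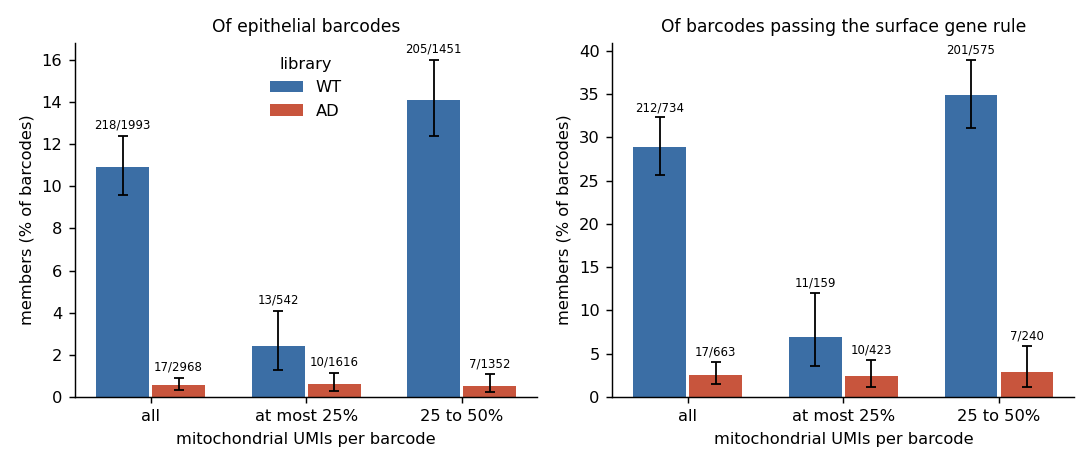
Share of members (vertical axis, % of barcodes) in the WT and AD libraries, over all barcodes and within each band of mitochondrial UMIs; bars are shares, error bars exact 95% Clopper-Pearson intervals, and the fractions above them the counts. The WT bars at 25 to 50% stand at 14.1% of epithelial and 34.96% of surface barcodes, and the AD bars lie between 0.518% and 2.92%.

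Almost every member met a limit on the detection of surface colonocyte genes. Barcodes were called surface barcodes when at least 3 of Slc26a3, Car4, Aqp8, Ceacam20, Krt20 and Guca2a were detected, none of which is among the 7 selecting genes. By this measure 212 of 218 WT members and 17 of 17 AD members were surface barcodes. Detection depends on depth, and AD members had a median of 14654 UMIs, against 5718 in the other AD epithelial barcodes under the goblet limit. The share of surface barcodes among others of that depth was not measured. Members were 212 of 734 WT surface barcodes, 28.9% (25.6 to 32.3), and 17 of 663 AD surface barcodes, 2.56% (1.498 to 4.07), a ratio of 0.0888 (0.0508 to 0.146). Surface barcodes themselves were 42.7% of WT and 35.3% of AD epithelial barcodes under the goblet limit, a ratio of 0.827 (0.743 to 0.920). Among surface barcodes the share of members was 201 of 575 in WT and 7 of 240 in AD at 25 to 50% mitochondrial transcripts. At 25% or less it was 11 of 159 and 10 of 423.

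Sequencing depth differed between the bands. Epithelial barcodes had median depths of 10504 UMIs in WT and 9301 in AD at 25% or less mitochondrial transcripts, and of 3264 and 1097 at 25 to 50%. Surface barcodes had medians of 17189 and 12508 in the lower band and of 4526 and 5567 in the upper. The WT members had a median of 3888 UMIs (523 to 70991) and the AD members 14654 (1822 to 33633), while the other epithelial barcodes under the goblet limit had medians of 4360 and 5718. After thinning every epithelial barcode to 1000 UMIs, which dropped shallower barcodes, 68 to 93 WT barcodes (median 80) still met the selection over 20 random draws. In the AD library 0 to 2 did (median 0). The largest upper limit of the AD over WT ratio over the draws was 0.0717. In the 25 to 50% band 1108 WT and 717 AD barcodes were deep enough, and 66 to 90 WT and 0 to 2 AD barcodes met the selection. At 25% or less it was 0 to 4 of 481 WT barcodes and 0 to 1 of 1462 AD barcodes.

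Free transcripts can put a gene into droplets that do not express it, so the selection was also run on cells that should lack it. It was met by 2 of 261 WT fibroblast barcodes, 0.766%, and by 1 of 346 WT lymphocyte barcodes, 0.289%, whose median depths were 3929 and 3296 UMIs. In the AD library it was met by 0 of 798 fibroblast barcodes, which allows a share of up to 0.376% by a floor of 3 counts, and by 0 of 716 lymphocyte barcodes, up to 0.419%. Median depths of these AD barcodes were 2856 and 4472 UMIs, against 14654 in the AD members. Shares among such cells as deep as those members were not measured. The exact upper bounds of the AD fibroblast and lymphocyte shares are 0.461% and 0.514%. The interval of the AD share among epithelial barcodes, 0.334 to 0.915%, overlaps these limits. That of the WT share, 9.60 to 12.4%, lies above the upper bound of 2.74% of the WT fibroblast value. These cells are an unlike comparison, since they were limited to under 0.3% epithelial transcripts, which leaves out droplets with much epithelial carry-over. Median mitochondrial shares were 7.42% in WT fibroblast and 8.12% in WT lymphocyte barcodes, against 41.6% in WT members. The part of free transcripts in the member shares was not tested.

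Duox2 was the most abundant of the 7 genes in the members. It reached 1595 CPM in WT members (1528 to 1663) and was detected in 217 of 218, with a median of 8 UMIs per barcode (range 0 to 55). The other WT epithelial barcodes under the goblet limit held 97.3 CPM, and 29.4% of them had a Duox2 UMI. In AD members Duox2 was at 220.2 CPM (165.9 to 286.6), detected in 14 of 17, with a median of 1 UMI (range 0 to 19). The other AD epithelial barcodes were at 63.0 CPM. In WT fibroblast and lymphocyte barcodes 5.36% and 10.4% had a Duox2 UMI, and in AD 2.26% and 1.26%.

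Duoxa2, the maturation factor, was at 54.6 CPM in WT members (42.9 to 68.6) and 1.64 in the other WT barcodes. No AD member had a Duoxa2 UMI, so its level was at least 4.55-fold lower there than in WT members, taking a floor of 3 counts over the AD members. Nos2 was at 83.4 CPM in WT members (68.7 to 100.3) and 4.69 in the others. AD members held 2 Nos2 UMIs, 8.01 CPM (0.970 to 28.9), against 5.05 in the other AD barcodes. Of Duox2, Duoxa2, Ifit1bl1 and Cyp2d9, the 4 genes that mark the set, Duoxa2 was thus without a UMI in the AD members.

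Ifit1bl1 was at 609.5 CPM in WT members (568.7 to 652.6) and 15.3 in the other WT barcodes, and in AD it was at 100.1 (64.8 to 147.7) and 3.30. It was detected in 89.0% of WT members and 64.7% of AD members. Ifit1bl2 was at 49.4 CPM in WT members against 0.894 in the others, and at 20.0 against 0.498 in AD, the AD member value resting on 5 UMIs. Cyp2d9 stood at 219.9 against 4.99 CPM in WT and at 48.0 against 5.48 in AD, and Cyp2d12 at 137 against 2.61 and at 64.0 against 3.18. For each of the 7 genes the member level was higher in WT than in AD.

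**Figure D2:**
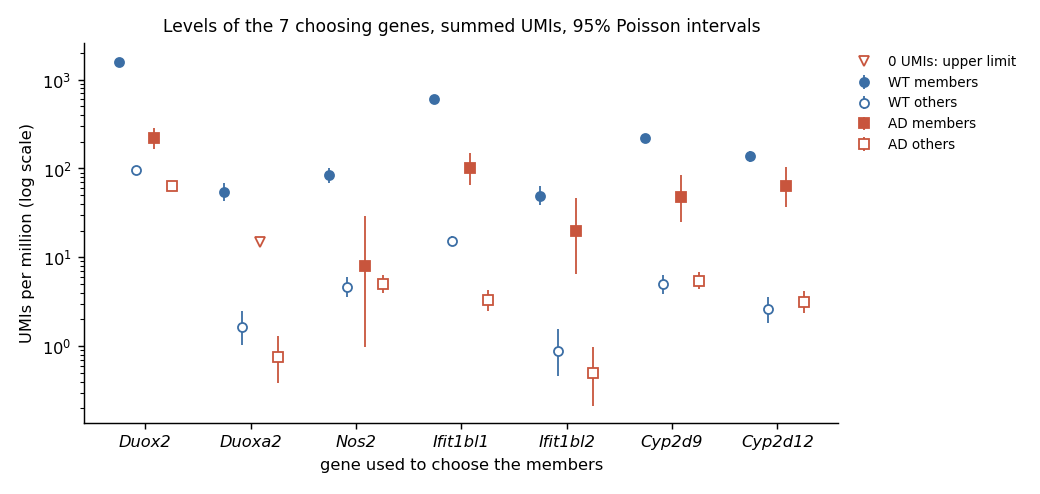
Levels of the 7 selecting genes (vertical axis, CPM, log scale) in members (filled) and in the other epithelial barcodes under the goblet limit (open) of the WT (circles) and AD (squares) libraries; lines are exact 95% Poisson intervals and the triangle the upper limit for 0 UMIs. WT members stand highest for each gene, from 49.4 for Ifit1bl2 to 1595 for Duox2.

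Counts of close relatives may be split between them, so these levels are uncertain for single gene copies. Of the 31-base words of the Cyp2d9 transcript 21.2% also occur in Cyp2d12 and 17.8% in Cyp2d10, and of those of Ifit1bl1 18.7% occur in Ifit1bl2. Duoxa2 and Duoxa1 shared 0 words, and Duox2 shared 11.6% with Duox1. Duox2 and Duoxa2 lie next to each other on chromosome 2 and are read in opposite directions, with 673 bases between their starts (build GRCm38.p6, RefSeq).

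The Ifit1bl genes lie on chromosome 19, and their promoters are shown because the members were high in these genes and in other interferon targets. The 250 bases before each transcript start were taken from RefSeq (GRCm38.p6) and searched on both strands for GAAA followed by any 2 bases and GAAA again, the core of the interferon-stimulated response element, which is shown in capitals where it or its reverse complement occurs. Both sequences, and a shorter stretch before Oas3 on chromosome 5, another interferon target described below, are on the minus strand and written 5′ to 3′.
Ifit1bl1, chr19:34601969-34602218: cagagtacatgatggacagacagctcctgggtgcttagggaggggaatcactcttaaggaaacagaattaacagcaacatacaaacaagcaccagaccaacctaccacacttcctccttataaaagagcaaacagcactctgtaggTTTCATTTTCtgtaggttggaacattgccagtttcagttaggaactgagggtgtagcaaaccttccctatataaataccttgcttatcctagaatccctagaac
Ifit1bl2, chr19:34640744-34640993: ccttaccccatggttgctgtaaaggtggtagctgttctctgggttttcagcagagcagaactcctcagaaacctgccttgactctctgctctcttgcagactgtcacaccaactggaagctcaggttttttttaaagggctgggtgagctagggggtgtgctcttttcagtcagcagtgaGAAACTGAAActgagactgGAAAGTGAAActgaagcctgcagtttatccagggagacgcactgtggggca
Oas3, chr5:120777695-120777764: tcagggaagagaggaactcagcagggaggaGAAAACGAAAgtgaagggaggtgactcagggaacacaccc
RefSeq lists more than 1 start for some of these genes, and 3 of the 7 windows of selecting genes held a match. The match in the Ifit1bl1 window shown was on the opposite strand and began 104 bases before the start, and its other window, not shown, had a match beginning 23 bases before its start. The Ifit1bl2 window shown had 2 matches, beginning 70 and 51 bases before the start, and its other window had 0. This Ifit1bl2 start lies 146 bases from that of Ifit1, which is read the other way, so both genes share this stretch. The motif was present in 2.98% of all 32851 RefSeq windows of this length. Counted by gene, 936 of 27025 genes with a window had it, 3.46%. Among the interferon-stimulated genes listed for this work, 11 of 25 with a window had it, and among the surface colonocyte genes 1 of 27. The windows of Duox2, Duoxa2 and Cyp2d9 held no match, which says only that these letters are not in those 250 bases.

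Members had to have 3 of the selecting genes, so their combinations are a description. Of 218 WT members, 163 had at least 1 gene of each of the 3 kinds (oxidant, Ifit1bl and Cyp2d), and of 17 AD members 7 did. In WT, 95 members had 3 of the 7 genes, 84 had 4, 32 had 5 and 7 had 6. In AD, 16 had 3 and 1 had 5. Just outside the threshold, 153 WT barcodes had 2 of the genes and a Duox2 level of 310.6 CPM, against 838.7 in those with 3. In AD the 70 barcodes with 2 genes were at 180.3 and the 16 with 3 at 147.6.

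The 7 genes together gave a median of 41.9 UMIs per 10000 in WT members (0.563 to 155.5) and 3.41 in AD members (0.892 to 43.9). At least 10 per 10000 were found in 196 WT members and 5 AD members. The deepest 11 WT members held 31.7% of the UMIs of all WT members but 2.34% of those of the 7 genes, with 3 to 12 each. A deep barcode can thus meet the selection with few such UMIs, and 13 of the 17 AD members also had both Aqp4 and Cyp2c68 detected, as had 4 of 218 WT members, 622 other AD barcodes and 154 other WT barcodes. Their part in the AD values was not tested.

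**Figure D3:**
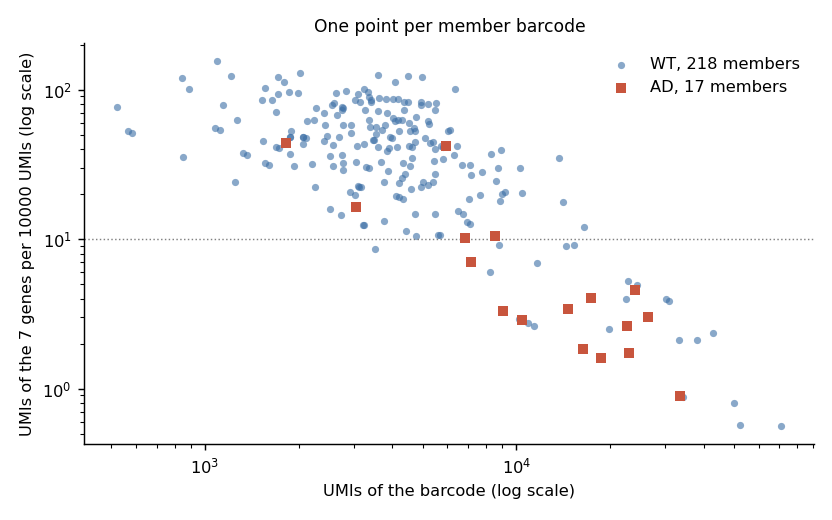
Each point is 1 member barcode of the WT (circles) or AD (squares) library, with its total UMIs (horizontal axis, log scale) against its UMIs of the 7 selecting genes per 10000 (vertical axis, log scale); the dotted line marks 10 per 10000. Most WT members form a cloud above the line, 196 of 218, and 12 of the 17 AD members lie below it.

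Choosing barcodes by 1 kind of gene and reading another kind gave values that this choice of barcodes did not fix. The 7 genes were themselves put together with earlier results of these data known, so their ratios to each other are a description. In WT, the 145 epithelial barcodes with at least 2 of Duox2, Duoxa2 and Nos2 held 289.3 CPM of Ifit1bl1, 6.19 times the 46.7 of the rest (5.45 to 7.03). Cyp2d9 was 4.37 times higher in them (3.48 to 5.48), and Mx1, an antiviral GTPase outside the selection, 5.04 times (3.01 to 8.28). Both sides had similar median depths, 4307 and 4168 UMIs, but were not matched for mitochondrial share or surface genes. The 313 WT barcodes with an Ifit1bl gene had 14.6 times the Duox2 level of the rest (13.6 to 15.7), and the 256 with Cyp2d9 or Cyp2d12 had 8.90 times (8.32 to 9.53).

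In AD the same choices gave smaller ratios for Duox2. The 55 AD barcodes with an Ifit1bl gene had 1.91 times the Duox2 level of the rest (1.51 to 2.40), and the 109 with a Cyp2d gene 1.75 times (1.45 to 2.09). Ifit1bl1 was 5.13 times higher in the latter (3.04 to 8.45). By at least 2 oxidant genes 29 AD barcodes were chosen, with 5 Ifit1bl1 UMIs, a ratio of 2.11 (0.665 to 5.15). Other AD ratios went both ways. In the barcodes with an Ifit1bl gene Cyp2d12 was at 7.19 times the rest on 16 UMIs (3.83 to 12.8). Cyp2d9 was at 2.55 there on 10 UMIs (1.18 to 4.91) and Irf7 at 2.21 on 36 UMIs (1.53 to 3.12). Others lay below 1. Nos2 was at 0.141 of the rest in the barcodes with a Cyp2d gene, on 1 UMI (0.00352 to 0.807). In the 29 barcodes with 2 oxidant genes Cyp2d9 was at 0.311 on 1 UMI (0.00779 to 1.77) and Irf7 at 0.458 on 6 UMIs (0.167 to 1.01). The chosen AD barcodes were deeper than the rest, with medians of 11619, 10094 and 16342 UMIs against 5598, 5496 and 5653. The part of depth in these ratios was not tested.

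Beyond the 7 genes, WT members were compared with the other 1502 WT epithelial barcodes under the goblet limit on summed UMIs, with 0.5 counts added to each sum for log2 ratios. Genes differing 2-fold or more are called higher or lower, and since the members were chosen on the same counts these are descriptions. Of 12935 genes with at least 20 UMIs, 956 were higher in WT members (7.39%) and 3069 lower (23.7%), with a median log2 ratio of -0.41. Leaving mitochondrial UMIs out of the totals shifts each log2 ratio by 0.17 and gave 1276 higher and 2346 lower. Among barcodes with 25 to 50% mitochondrial transcripts 965 of 11302 genes were higher (8.54%) and 2889 lower (25.6%). Of the 956 higher genes 860 were also 2-fold higher in that band, and 717 against the other 522 surface barcodes alone. Against those surface barcodes 676 of 10744 genes were higher (6.29%) and 1285 lower (12%), with a median of -0.23, or 891 and 919 without mitochondrial UMIs.

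Interferon-stimulated genes were the list with the highest median in WT members of all lists, and the list holds none of the 7 selecting genes. Of 33 such genes in the files 26 had enough UMIs, and 16 were higher and 1 lower, with a median log2 ratio of 1.58 against -0.41 over all genes. Against the other surface barcodes 13 of 24 were higher and 1 lower, with a median of 1.08. Among barcodes with 25 to 50% mitochondrial transcripts 16 of 24 were higher and 1 lower.

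Irf7, the transcription factor that amplifies interferon signalling, was at 188 CPM in WT members (166 to 213), against 34.04 in the other barcodes and 41.3 in the other surface barcodes, and 55.0% of members had it. Mx1 was at 33.95 CPM against 2.16. Oas3, a sensor of double-stranded RNA, was at 11.1 against 0.521, on 15 UMIs, and Ifit1 at 17.7 against 1.12, on 24 UMIs. Oasl1 was at 50.9 against 8.86 and Parp14 at 51.7 against 10.4. Isg15, a ubiquitin-like modifier, was at 19.9 against 4.77 and Rsad2 at 22.1 against 7.07. These 8 genes were thus higher by 3.13-fold for Rsad2 to 21.2-fold for Oas3, and Irf7 had the highest level of them.

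Not every interferon gene followed. Irf9 was at 19.9 CPM in WT members and 16.4 in the others, Ifi35 at 16.2 and 18.1 and Ifi27 at 28.8 and 26.8. Bst2, which tethers budding viruses, was the 1 lower gene, with 1 UMI in members and 5.59 CPM in the others. The receptor of type III interferon, Ifnlr1, was at 23.6 CPM against 6.63, while Ifnar1 and Ifnar2 of the type I receptor were at 8.86 against 7.15 and at 2.21 against 3.35. Ifngr1, which binds interferon gamma, was at 225.8 against 113.4, just under the 2-fold line. Of 8 measured receptor genes 1 was called higher. Of 7 measured genes of the interferon gamma and guanylate-binding list 2 were higher, with a median log2 ratio of 0.72. Gbp2 led at 7.38 against 0.819 CPM, and Cxcl10, Igtp and Tgtp1 had 0 UMIs in every group of barcodes compared.

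Of 14 measured genes of MHC class I presentation 4 were higher and 1 lower in WT members, beside 7.39% of all genes higher, with a median log2 ratio of 0.47. In the 25 to 50% band 5 of 13 were higher. H2-Q1 was at 36.9 CPM against 4.24, the classical H2-K1 at 1136 against 497.5, and Tapbp, which loads peptides, at 153.5 against 72.5. Against the other surface barcodes 1 of 12 was higher.

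**Figure D4:**
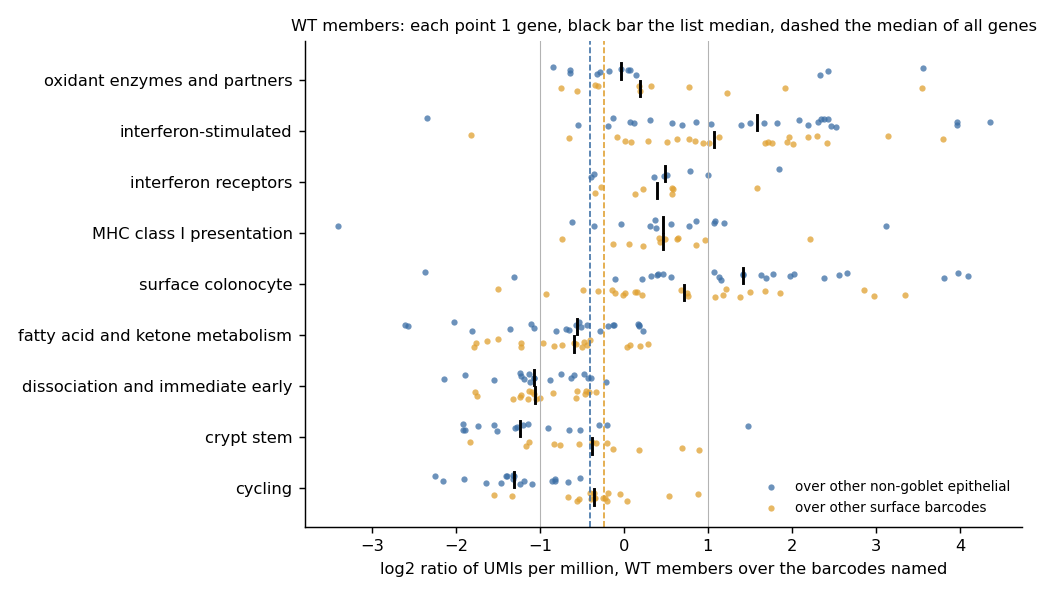
Log2 ratios of WT members over the other epithelial barcodes under the goblet limit (blue) and over the other surface barcodes (orange), horizontal axis, 1 point per gene with at least 20 UMIs and 1 row per gene list; black bars are list medians, dashed lines the medians of all genes at -0.41 and -0.23, grey lines the 2-fold limits. Interferon-stimulated genes have medians of 1.58 and 1.08, and cycling genes -1.31 and -0.35.

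Among oxidant enzymes the other DUOX pair was also higher in WT members. Duoxa1 was at 18.5 CPM in WT members against 1.56, and Duox1 at 9.59 against 1.94 and 0.458 in the other surface barcodes. Duox1 rested on 13 UMIs, and shared words with Duox2 leave it uncertain. Xdh, the oxidase that makes uric acid, was at 83.4 against 15.6, a log2 ratio of 2.42. Its ratio was 2.40 in the 25 to 50% band but 0.25 with a mitochondrial limit of 25%, so it was not 2-fold higher there. These were the 3 higher genes of 13 measured, and 0 were lower. Nox1, the colon NADPH oxidase, was at 5.17 against 5.21, and its partner Noxa1 at 33.2 against 30.5. Of 21 genes for the removal of peroxide and other oxidants 2 were higher and 4 lower, beside 7.39% and 23.7% of all genes. Among them were Srxn1 at 118 against 34.8, Nqo1 at 5.17 against 24.0 and catalase (Cat) at 16.97 against 47.6.

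Of 4 other Cyp2d genes 3 were higher in WT members and 1 lower. Cyp2d34 was at 840.5 CPM in WT members against 117.6, Cyp2d10 at 179 against 17.5 and Cyp2d22 at 46.5 against 8.57, while Cyp2d26 was at 8.12 against 23.8. Of the 15 measured genes of cytochrome P450 families 2 and 3 and their reductase, 4 were higher and 4 lower. Of all genes 7.39% were higher and 23.7% lower. Cyp2c68 was the lowest, at 7.38 against 37.3. Among 36 drug and steroid conjugation genes 4 were higher and 7 lower, beside the same shares of all genes. The carboxylesterases Ces2a and Ces2c stood at 260.5 against 34.9 and 736.5 against 121.7, the efflux pump Abcg2 at 245 against 43.9, and the sulfotransferase Sult1a1 at 28.8 against 159.9.

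Many surface colonocyte genes were higher in the WT members, also against other surface barcodes. Of 25 measured, 16 were higher and 2 lower than in the other epithelial barcodes, with a median log2 ratio of 1.42, and 10 of 24 were higher and 1 lower than in the other surface barcodes, with a median of 0.71. Car4, a membrane carbonic anhydrase, was at 2075 CPM (1999 to 2153) against 147 in the others and 285.4 in surface barcodes. Aqp8, a water and peroxide channel, was at 1288 against 82.0 and 163.6, and Ceacam20, a brush-border protein, at 658 against 104.7 and 205. Clca4a was at 20.7 against 1.19 and 1.99. Guca2a, the guanylin hormone, was at 4442 against 2026 and 3826. Ms4a10 was among the lower genes, with 0 UMIs in members.

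Other abundant genes were as far apart. Saa1, serum amyloid A, an acute-phase protein also made by gut epithelium, was at 6216 CPM in WT members (6084 to 6351), against 424 in the others and 803 in surface barcodes, and 98.6% of members had it. Its relative Saa2 shares 22.8% of its words with it, so the sum may be split. The genes with the highest log2 ratios among those with at least 50 member UMIs, chosen after their values were seen, also held the surface antigens Ly6m and Ly6g, at 439 against 23.8 and 100.4 against 6.70. They held Apoc2 at 42.1 against 2.16, the peptide transporter Slc15a1 at 166 against 17.1, the laminin chain Lama3 at 109 against 9.01 and the cornified-envelope gene Sprr2a2 at 450.9 against 45.7. Spats2l was at 64.9 against 4.47, and Stom, stomatin, at 176.4 against 19.7.

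Ion transport genes went both ways. Slc9a3, the apical sodium-proton exchanger, was at 468.6 CPM in WT members against 123, Scnn1a of the epithelial sodium channel at 117 against 33.7 and Atp12a, a proton-potassium pump, at 66.4 against 8.79. The chloride channel Cftr was at 53.9 against 150.1, the chloride entry transporter Slc12a2 at 33.9 against 100.5 and the potassium channel Kcnq1 at 33.2 against 96.6. Of 21 measured 5 were higher and 7 lower, beside 7.39% and 23.7% of all genes. Against the other surface barcodes 2 were higher and 4 lower, beside 6.29% and 12% of all genes.

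Cell death genes were mixed. Gsdmd, which forms membrane pores, was at 186.7 CPM in WT members against 53.5 and the necroptosis kinase Ripk3 at 76.0 against 19.1, while Gsdmc3 was at 89.3 against 282. Mxd1, not itself a cell death gene, was at 818 against 149. Of 17 measured genes of the gasdermin and cell death list 4 were higher and 3 lower, beside 7.39% and 23.7% of all genes. Of 27 microbial sensing and NF-kB genes 3 were higher and 4 lower, beside the same shares. Il22ra1, the receptor chain for interleukin 22, was at 10.3 against 2.61, and Nod2 had 1 UMI in members against 5.36 CPM in the others.

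Crypt and cell cycle genes mark the dividing base of the gland. Of 16 crypt stem genes 10 were lower and 1 higher in WT members than in the other epithelial barcodes. Of all genes 23.7% were lower and 7.39% higher. The median log2 ratio of the list was -1.24, against -0.41 over all genes. Axin2, a Wnt target, was at 5.17 CPM against 20.8, and Ephb2 at 16.2 against 55.3, while Prom1 was the 1 higher gene, at 265.7 against 95.8. Of 18 cycling genes 13 were lower and 0 higher, beside the same shares of all genes, with Mki67 at 30.99 against 82.2. The Mki67 log2 ratio was -1.39, but -0.27 with a mitochondrial limit of 25%, so not 2-fold there. It was -1.79 in the 25 to 50% band and -2.87 without the deepest 5% of barcodes. Against the other surface barcodes the medians of the crypt stem and cycling lists were -0.38 and -0.35, against -0.23 over all genes. There 3 of 13 crypt stem genes and 2 of 18 cycling genes were lower, beside 12% of all genes, so the cycling share was near that of all genes. In the 25 to 50% band 10 of 15 crypt stem genes and 18 of 18 cycling genes were lower, beside 25.6% of all genes.

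Dissociation of tissue is known to raise immediate early genes. Of 18 dissociation and immediate early genes 10 were lower and 0 higher, beside 23.7% of all genes lower. Against the surface barcodes it was 11 and 0, beside 12% of all genes lower. In the 25 to 50% band 5 of 18 were lower, beside 25.6% of all genes there. Fos was at 1065 against 2514, a log2 ratio of -1.24, which was -0.83 with a mitochondrial limit of 25% and -0.95 in the 25 to 50% band, so not 2-fold in either. Nr4a1 was at 55.4 against 245. Of 22 fatty acid and ketone genes 7 were lower and 0 higher, beside 23.7% of all genes lower, with a median log2 ratio of -0.56 against -0.41 over all genes. Among the lower were Scd2 at 85.6 against 349.9 and Fasn at 20.7 against 73.3. Of 13 amyloid precursor and secretase genes 0 were higher and 1 lower, beside 7.39% and 23.7% of all genes.

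Tuft and leukocyte markers were scarce in the members. In WT members the 12 tuft markers summed to 19 UMIs, 14.0 CPM, with Chat, Pou2f3 and Rgs13 at 0, against 193 CPM in the other barcodes. The 16 lymphocyte markers summed to 13 UMIs, 7 of them in 1 barcode, with Cd3e, Cd4 and Cd8a at 0, and the 7 common leukocyte markers to 20 UMIs. In AD members 10 of the tuft markers and 13 of the lymphocyte markers were at 0. Plasma cell transcripts were present in both libraries, at 209.6 CPM in WT and 2790 in AD members against 509.3 and 6339 in the other barcodes. Derl3 and Tnfrsf17 were at 0 in the members of both, and Igkc had 0 UMIs in the other barcodes too. All 17 AD members had plasma cell UMIs. The 11 goblet markers beyond the selection summed to 496 UMIs, 366 CPM, in WT members against 505.8 in the other barcodes, and to 118 UMIs, 472 CPM, in AD members against 850.1. Enteroendocrine markers summed to 1176 UMIs in WT members, 867.8 CPM, 992 of them in 1 barcode, and red cell genes to 1659, 1224 CPM, 1501 of them in another. The part of these transcripts in the member values was not tested.

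Some WT values, and the counts of genes called, depended on single barcodes. Of 909 Chgb UMIs 822 were in 1 barcode, which also held 158 of 171 Reg4 and 53 of 57 Tph1 UMIs. Without the 6 barcodes that each held most UMIs of some gene, 212 WT members remained, with 1093 genes higher and 4027 lower than in the other barcodes. With all 218 WT members it was 956 and 3069 of the same 12935 genes.

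Genes were then called in both libraries. AD members stood 2-fold higher than the other AD barcodes for 1280 of 13212 genes (9.69%) and lower for 2355 (17.8%). A low gene could be called higher on 1 UMI in AD members, as Ankrd23 was, with 42 in the other AD barcodes (log2 ratio 1.18). How many of the 1280 calls, or of the shared and interferon calls below, rest on so few UMIs was not counted. Higher in both libraries were 279 of 12387 genes (2.25%) and lower in both 915 (7.39%). Leaving out the selecting genes, Ly6g and Saa1 led the higher ones. Ly6g was at 48.0 CPM in AD members against 4.86, on 12 UMIs, and Saa1 at 2442 against 280, next to their WT values of 100.4 against 6.70 and 6216 against 424. Atp12a, Tmem37, Car4, Slc15a1 and Oasl2 followed with log2 ratios of 2.92, 3.10, 3.82, 3.28 and 2.38 in WT and 3.29, 2.72, 2.50, 2.49 and 2.53 in AD. Oasl2 in AD rested on 10 UMIs, 7 of them in 1 barcode. Of 24 interferon-stimulated genes measured in AD 9 were higher and 1 lower than in the other AD barcodes, and of those measured in both libraries 6 were higher in both.

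Lowest in both were hormone genes of enteroendocrine cells. Insl5 and Pyy were at 1.48 and 5.17 CPM in WT members, against 118.9 and 131.5 in the others, and had 0 UMIs in AD members, against 365.7 and 367.3 in the other AD barcodes. In the WT barcodes with 25 to 50% mitochondrial transcripts the Insl5 log2 ratio was -0.13, so it was not 2-fold lower there. Of 7 enteroendocrine markers measured in that band 4 were higher and 1 lower in WT members, with a median log2 ratio of 1.09. Of the 1176 UMIs of these markers in all WT members 992 were in 1 barcode. Low enteroendocrine levels were thus not found in the band that holds most WT members. Ank, St18 and Map1b had 3, 8 and 2 UMIs in WT members and 0 in AD members. Since many of the 915 genes had 0 UMIs in the 17 AD members, their call depends on the counts added, and with 3 in place of 0.5 there were 138. The same change raised the number of genes higher in both above 279, as given in the last section.

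AD and WT members were compared with each other for 3605 genes with at least 50 UMIs. Of these 582 were higher in AD (16.1%) and 269 lower (7.46%), with a median log2 ratio of 0.29. WT members held 35.5% mitochondrial UMIs in all and AD members 21.2%, and without these UMIs each log2 ratio falls by 0.29. The split then turned to 296 higher and 423 lower. Ratios below are on all UMIs and should be read against that shift.

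Highest in AD against WT members was Cyp2c68, a cytochrome of family 2. It was at 164 CPM in AD members and 7.38 in WT members, a log2 ratio of 4.42 (3.45 to 5.64). Pck1, of glucose synthesis, was at 228 and 15.5, Hao2, a peroxisomal oxidase, at 1621 and 147, and the metallothionein Mt1 at 1141 and 142. The chloride channel Ano1 was at 496.4 and 62.0, and Hsd11b2, which inactivates glucocorticoids, at 312 and 50.2. The other AD epithelial barcodes held 131 CPM of Cyp2c68, 171.6 of Pck1, 861 of Hao2, 788.6 of Mt1, 227.9 of Ano1 and 230.9 of Hsd11b2. AD members were above these by 1.25-fold for Cyp2c68 to 2.18-fold for Ano1. With a mitochondrial limit of 25% the ratio of AD over WT members was 4.21 for Cyp2c68, 2.39 for Hao2 and 1.49 for Fos on the log2 scale, and in the 25 to 50% band 3.25, 3.40 and 1.87. Of 17 measured immediate early genes 9 were higher and 0 lower in AD members, with Fos at 4984 and 1065, and of 13 fatty acid and ketone genes 9 and 0. Of all genes 16.1% were higher and 7.46% lower. The list medians were log2 ratios of 1.17 and 1.13, against 0.29 over all genes. Counts for these lists without mitochondrial UMIs were not made.

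Lower in AD members were several genes that led the WT set. Saa1 was at 2442 CPM against 6216, a log2 ratio of -1.35 (-1.47 to -1.23), Car4 at 552.4 against 2075, -1.90 (-2.17 to -1.66), and Ly6m at 36.03 against 439, -3.53 (-4.74 to -2.67). These sizes differed with the mitochondrial band. With a limit of 25% the log2 ratios were -0.90 for Saa1, -1.29 for Car4 and -1.94 for Ly6m, and in the 25 to 50% band -0.20, -0.50 and -1.75. Among members with at least 10 selecting UMIs per 10000 they were -0.15, -0.21 and -1.52, so the 2-fold difference of Saa1 was lost in each of these 3 settings and that of Car4 in the last 2. Duox2 was at 0.138 and Ifit1bl1 at 0.164 of the WT level, which the selection touched. Spats2l, Oasl1 and Clca3a1 had 0 UMIs in AD members, at least 5.41-fold, 4.24-fold and 4.24-fold lower than in WT members against the floor of 3 counts. Irf7 was at 40.0 on 10 UMIs against 188. Of 7 measured interferon-stimulated genes 1 was higher and 4 lower in AD members, beside 16.1% and 7.46% of all genes. WT members held 1355121 UMIs in all and AD members 249819. A gene could thus reach the minimum of 50 UMIs through WT members alone, as Oasl1 did. Genes high in WT members were favoured by that minimum, so the count is a description. Chgb, Chga and Tph1, also among the lowest, owed their WT level to the 1 barcode named above.

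Surface barcodes, chosen without the 7 genes, gave the levels of both libraries over 734 WT and 663 AD cells. Over all of them 318 of 10079 genes were higher in AD (3.16%) and 510 lower (5.06%), or 206 and 703 without mitochondrial UMIs, which shifts log2 ratios by -0.17. Duox2 was at 394.6 CPM in WT (380.8 to 408.7) and 78.3 in AD (72.3 to 84.7), 0.198 of the WT level (0.182 to 0.216). Ifit1bl1 was at 127 and 8.53, a ratio of 0.0672 (0.0518 to 0.0860), and Cyp2d9 at 44.4 and 11.7, a ratio of 0.263 (0.207 to 0.331). Duoxa2 had 88 UMIs in WT and 3 in AD.

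The size of these ratios differed between the mitochondrial bands. At 25% or less Duox2 was at 91.0 in WT and 63.4 in AD, a ratio of 0.697 (0.597 to 0.814). At 25 to 50% it was at 605 and 126.5, a ratio of 0.209 (0.182 to 0.239). Ifit1bl1 was at 0.226 of the WT level in the lower band (0.148 to 0.339) and at 0.0888 in the upper (0.0608 to 0.126). Cyp2d9 was at 0.677 (0.446 to 1.03) and 0.306 (0.213 to 0.430). Duox2 and Ifit1bl1 were thus lower in AD in both bands, and for Cyp2d9 the interval in the lower band holds 1. Median mitochondrial shares within the bands were 17.6% and 16.4% in the lower and 40.7% and 35.8% in the upper, for WT and AD.

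For other genes high in the members, the ratio differed in size or direction between the bands. Saa1 was at 0.810 of the WT level at 25% or less (0.767 to 0.855) and at 0.355 at 25 to 50% (0.337 to 0.374). Irf7 was at 1.05 (0.806 to 1.37) and 0.466 (0.363 to 0.591). Mx1 was at 0.860 on 8 WT and 13 AD UMIs (0.330 to 2.39) and at 0.235 on 63 and 6 UMIs (0.0830 to 0.540). Aqp8 was at 1.73 (1.499 to 2.01) in the lower band and 0.386 (0.346 to 0.429) in the upper, and Cyp2d10 at 2.11 (1.62 to 2.78) and 0.650 (0.514 to 0.816), so both turned between the bands. Ly6m, at 0.623 over all surface barcodes, turned as well, at 3.55 (2.65 to 4.85) and 0.627 (0.537 to 0.730). Cyp2d12, 1 of the 7 selecting genes, did too, at 2.31 on 8 WT and 35 AD UMIs (1.05 to 5.78) and at 0.356 (0.232 to 0.527).

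Some surface and interferon genes were higher in AD surface barcodes. Krt20, a keratin of mature colonocytes, was at 1.28 of the WT level in the lower band (1.21 to 1.35) and 1.18 in the upper (1.11 to 1.26). Oasl1, at 0 UMIs in AD members, was at 17.4 CPM in WT and 23.3 in AD surface barcodes, a ratio of 1.34 (1.07 to 1.68). Its ratio was 2.06 in the lower band (1.42 to 3.06) and 1.12 in the upper (0.774 to 1.61). Lypd8, which keeps bacteria from the surface, was at 4507 and 5572, a ratio of 1.24 over all (1.22 to 1.25) but 0.916 in the upper band (0.892 to 0.940). Without mitochondrial UMIs these ratios over all surface barcodes were 1.10 for Krt20, 1.19 for Oasl1 and 1.10 for Lypd8. Car4, Aqp8 and Krt20 are among the genes that chose the surface barcodes, so their levels there are partly fixed by the choice.

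**Figure D5:**
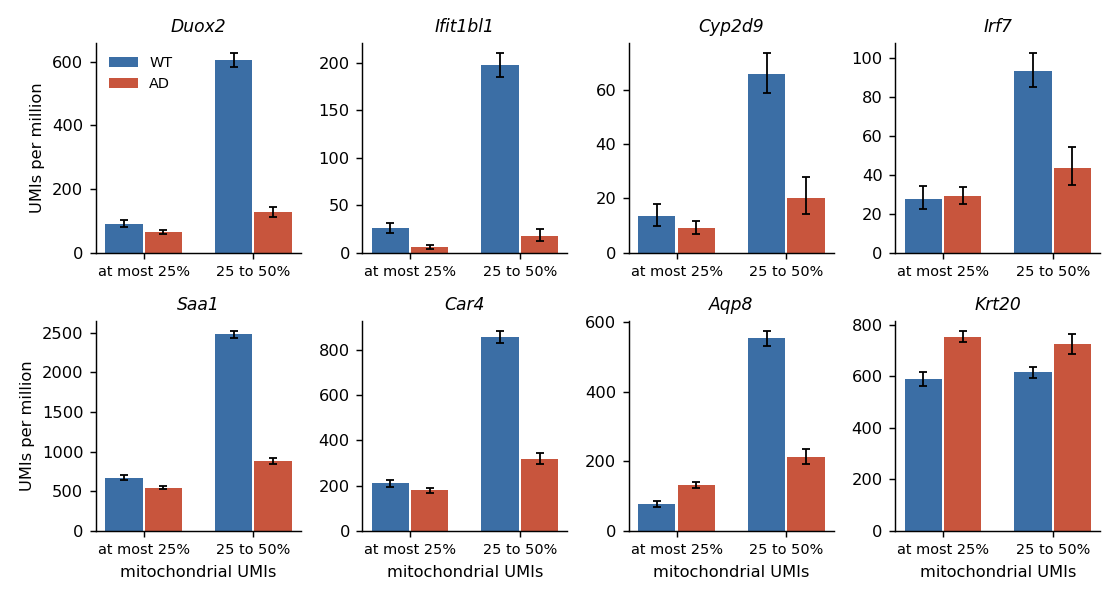
CPM (vertical axes, from 0) of 8 genes in surface barcodes of the WT and AD libraries at 2 bands of mitochondrial UMIs (horizontal axes); error bars are exact 95% Poisson intervals. Duox2, Ifit1bl1, Cyp2d9, Saa1, Car4 and Aqp8 stand highest in the WT library at 25 to 50%, while Krt20 is higher in AD in both bands.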

How the data were processed

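Single-cell libraries of 1 WT and 1 AD colon sample were used. The deposited values are raw counts of UMIs, whole numbers that the authors did not normalize, in 1 sparse matrix for each library. Tools named per the submitters' processing notes are Seurat 3.0.2, STAR and, for 10x data, Cell Ranger 3.0.1, with the build mm10. Their other settings and the gene annotation are not given in the sources used here. Both libraries listed 33083 genes, and of 642 list genes 7 were not matched. Barcodes below 500 UMIs were absent, and total UMIs per library were 26898149 and 38731915.

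From these counts, members were selected by the stated limits, UMIs summed per library and set, and log2 ratios computed with 0.5 counts added (pandas 2.3.3, scipy 1.17.1 and numpy 2.4.6 under Python 3.11.15, with figures by matplotlib 3.10.9). Genes needed 20 UMIs over both sides, or 50 between AD and WT members, and 2-fold was the call. No test was made. The calling was tried on simulated counts of abundant genes with large changes only. That trial cannot speak for calls that rest on few UMIs. Doublets were not called; leaving out the deepest 5% of barcodes is an alternative. Fibroblast barcodes had under 0.3% epithelial and at least 0.5% collagen, Dcn and Lum transcripts, and lymphocyte barcodes under 0.3% epithelial transcripts and at least 3 lymphocyte markers.

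The members, gene lists and alternatives were chosen with earlier results of these data known. By rule, genes named were the selecting, oxidant, interferon and Cyp2d genes, the 4 largest ratios of other lists, the 15 highest and 10 lowest shared by both libraries, and 12 each way between AD and WT members, without ribosomal, mitochondrial, immunoglobulin, T cell receptor, haemoglobin, sex-linked and unnamed genes. Other genes named were chosen after their values were seen. Promoters were RefSeq windows of GRCm38.p6; no entry was used for Nos2 or Cyp2d12. Alternatives changed the limits, scaling, counts added and gene minimum. Other arms of the study were not analysed here. Some genes of the lists are not reported here.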

Additional observations from a re-analysis of the deposited data

Results flagged for a closer look

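The selection was also met in barcodes that the comparisons leave out. Among epithelial barcodes of the WT library with more than 50% mitochondrial UMIs it was met by 157 of 561, 28.0% (24.3 to 31.9), and in the AD library by 2 of 184, 1.09% (0.132 to 3.87). Among non-epithelial WT barcodes it was met by 21 of 1281, 1.64% (1.02 to 2.50), above the limit of 0.234% that a count of 0 would allow, and in AD by 1 of 3427.

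Reg4, a lectin gene of secretory cells, went opposite ways in the 2 libraries, with a log2 ratio of members over other barcodes of 2.95 in WT and -1.64 in AD. This difference was not tested. The WT value came from 1 barcode with 158 of the 171 UMIs, and the AD value rests on 4 UMIs.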

How the results depend on the processing

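No paired analysis was possible because each genotype had 1 library, and for the same reason none could be left out. Over 15 alternatives the share of members in AD over WT stayed below 1, from 0.00546 to 0.258, against 0.0524. It was 0.258 with a mitochondrial limit of 25%, 0.157 with at least 2 selecting genes, 0.00546 with at least 4 (123 WT members and 1 AD member), 0.211 with an epithelial share of 1%, 0.0171 with at least 10 selecting UMIs per 10000, 0.00912 after thinning to 1000 UMIs in a draw with the median of 80 WT members and 1 AD member (median ratio over the draws 0), and 0.0888 over surface barcodes. Counts of 2-fold genes, given as AD over WT members higher and lower, then members over others in both libraries higher and lower, were 582, 269, 279 and 915. They were 96, 153, 179 and 518 at a mitochondrial limit of 25%, and 243, 91, 145 and 542 at an epithelial share of 1%. At least 2 selecting genes gave 302 higher between members, 78 and 139, and at least 4 gave 175 lower, 1200 and 268. With no mitochondrial limit 1065 were higher in AD. In the 25 to 50% band alone, 385 were higher in AD and 470 lower in both libraries. With at least 10 selecting UMIs per 10000 there were 324 higher in AD and 1090 higher in both. Without mitochondrial UMIs the split in AD was 296 and 423, and as a mean over barcodes 953 were higher in AD and 1937 lower in both. Adding 3 counts gave 150 lower in AD and 1056 and 138 shared, and a minimum of 10 UMIs 1505 and 1164 in AD and 516 higher in both. Against surface barcodes alone, 129 and 219 were shared. With 1 AD barcode left or 3 counts added, a gene without UMIs in AD members can pass the 2-fold line through the added counts alone, so the 1200 and 1056 genes follow from how these alternatives are built. The cause of the other moves was not tested. With at least 4 selecting genes, the log2 ratio of AD over WT members turned for Saa1 to 1.02, Car4 to 1.22 and Fos to -0.0798, on the 1 AD barcode left. Of 85 alternative values of these main results 47 stayed within the limits used and 38 moved. The 25 to 50% band alone, the surface barcodes, the limit of 10 selecting UMIs per 10000 and leaving out 6 single barcodes were chosen after seeing the data. The 17 AD members, 249819 UMIs in all, limit what can be said of low genes in AD.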
